A study of Mus musculus with 12 samples.

Results

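The comparison described here is the addition of a CD40 agonist to a CSF1R inhibitor in mouse melanoma. Its members are the 6 samples whose titles name the inhibitor, of 12 in all: 3 from mice given the inhibitor alone (CSF1Ri) and 3 from mice given both agents (the combination). All 16027 genes that passed a filter on low counts were tested. Per the labels' protocols all of the mice carried Tyr::CreER, an inducible Cre recombinase driven by the tyrosinase promoter and so active in melanocytes, and tumors were induced locally. The labels also carry a genotype field that reads wild type. CSF1Ri mice ate chow with the inhibitor PLX6134 at 600 mg per kg, starting 30 days after induction with tumors under 100 mm3 in total, for 30 days or until a tumor reached 2 cm3. Combination mice ate the same chow and also received the agonistic antibody FGK4.5, 10 mg/kg into the peritoneum every 3 days for up to 10 treatments. The other 6 samples, Control and CD40 agonist on normal chow (3 each), entered the model to estimate the spread. Vehicle was PBS, though the labels do not say which sequenced groups received it. Each sample pooled at least 3 tumors. The labels call the pools triplicates without saying how independent they were, so p-values measure the spread between pools.

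CD40 is a receptor of the TNF receptor family on macrophages, dendritic cells and B cells, and its ligand is carried by activated T cells. It recruits TRAF adaptors and switches on canonical NF-kB, through degradation of the inhibitor IkBa, and non-canonical NF-kB, through processing of the Nfkb2 product to p52. CSF1R is the receptor through which CSF1 and IL-34 keep macrophages alive and direct their differentiation. Interferon gamma, made by NK and T cells, acts on macrophages to induce guanylate binding proteins, immunity-related GTPases, CXCR3 ligands and MHC genes.

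Library totals of the 12 samples ran from 26316328 to 39818657 estimated counts. The samples are labelled tumor-associated macrophages, and the macrophage genes Adgre1 (F4/80), Cd68, Csf1r, Lyz2 and Ptprc (CD45) were detected in all 6 libraries. Of 12 macrophage markers tested, 6 were higher and 6 lower in the combination, and 0 passed the test. This depended on libraries that stood apart: 1 rose and 2 fell without combination replicate 2, and 3 rose and 5 fell without that library and CSF1Ri replicate 3. Their summed level was 25100 to 27800 CPM (scaled counts per 1000000) in CSF1Ri and 15200 to 37400 CPM in the combination. No sorting gate is given in the sources used here, and fewer cells of a type cannot be told apart from less RNA per cell in such pooled samples. Libraries of both groups stood apart from their group: on the second component of all 12 libraries, combination replicate 2 lay at -106 against -32.5 and -55.6, and CSF1Ri replicate 3 at 32.7 against -22.2 and -24.

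Adding the agonist was accompanied by higher levels of Tnf, Il12b, Cd40, 7 of 11 MHC class II genes, 5 of 18 interferon gamma inducible GTPases and the immediate early genes Jun, Atf3 and Dusp2, and by lower levels of Fkbp5, Retnlg and 3 of 8 eosinophil genes. Tnf, Jun, Atf3, Fkbp5 and Retnlg were called in every fit that left out a single library, and Il12b, Cd40 and Dusp2 were not. Without CSF1Ri replicate 2, 0 class II genes and 0 of these GTPases were called. In the fit to all 12 libraries (edgeR quasi-likelihood, Benjamini-Hochberg adjusted p below 0.05) 199 genes were higher in the combination, 1.24% of those tested, and 112 were lower, 0.699%. At an unadjusted p below 0.05 there were 2926 genes. None of the 311 called genes overlapped between the groups in CPM. Over all tested genes, 10.8% had all 3 combination libraries above all 3 CSF1Ri libraries and 11.1% had them below.

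**Figure D1:**
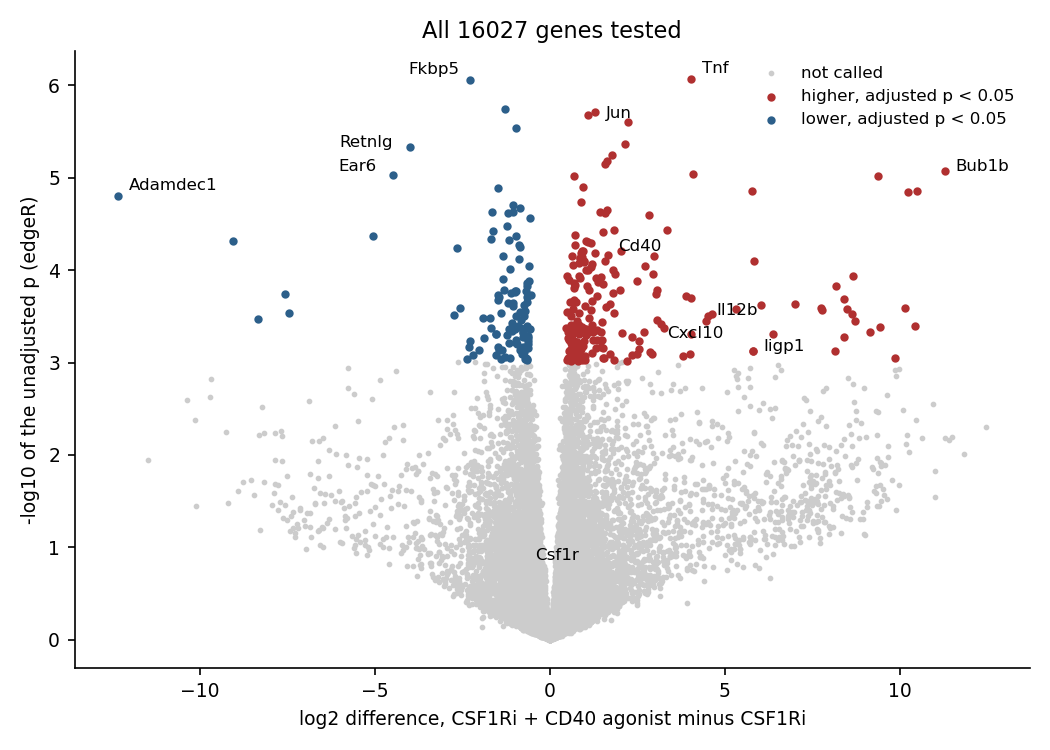
Each point is a gene, placed by its log2 difference between the combination and CSF1Ri (x axis) and the -log10 of its unadjusted p in the 12-library edgeR fit (y axis). Red points are the 199 genes called higher and blue points the 112 called lower. Tnf and Fkbp5 have the smallest p on either side, and Csf1r lies near the middle.

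These calls rest on a spread pooled over 4 groups. When the 6 libraries were fitted by themselves, edgeR called 0 of 14474 genes (1972 at an unadjusted p below 0.05, smallest adjusted p 0.0868), limma voom called 0, and DESeq2 called 513 higher and 305 lower. Leaving out 1 library at a time from the 12-library fit gave 13 to 256 genes higher and 9 to 173 lower. The fewest came without CSF1Ri replicate 2 (13 and 9) and without CSF1Ri replicate 1 (29 and 14), and the most without combination replicate 2 (256 and 173). Without CSF1Ri replicate 2, genes were called in 5 of the lists used below: 1 among cytokines, 2 among immediate early genes and 1 each among cell cycle, neutrophil and eosinophil genes. Of the 311 genes, 17 were called in all 12 of these fits, 72 in at least 10 and 13 in none, with a median of 4. That number is given beside genes below as the fits of 12 in which a call held.

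Transcript length moved with the comparison. The median transcript length was 1527 bases for the genes that rose, 2988 for those that fell and 2189 for all tested. Within each library, the quartile of well-detected genes with the longest transcripts was set against that with the shortest, as the difference of their median log2 deviations from the mean over all libraries. This was -0.322, -0.196 and -0.125 in the combination replicates and 0.211, 0.207 and 0.101 in the CSF1Ri replicates, so the groups did not overlap. In Control it was 0.142, 0.046 and 0.194, and with the agonist on normal chow -0.0476, -0.157 and 0.0376, so on both chows every library with the agonist lay below every library without it. With an offset that removes a smooth length trend from each library, an alternative chosen after seeing the data, 102 genes were higher and 72 lower, of which 100 and 58 were also called without it. Of the 112 genes called lower, 111 kept their sign under the offset. The exception, D10Wsu102e, went from log2 -0.60 to 0.27 (adjusted p = 0.0192 and 0.345) and was looked up for that reason. Whether RNA quality had a part in this was not tested.

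Cd40 itself (chromosome 2, 165055627 to 165072948) was higher in the combination. Its level was 303, 189 and 239 CPM in combination replicates 1 to 3, and 62, 60.4 and 109 CPM in CSF1Ri replicates 1 to 3. The groups did not overlap, and the fitted difference was 3.16-fold (log2 1.66, SE 0.269, adjusted p = 0.0181, held in 9 of 12). Control libraries were at 98.1 to 151 CPM. Nfkb2, the precursor of p52 and a target of NF-kB (chromosome 19, 46304320 to 46312385), was at 75.2, 78 and 83.2 CPM against 47.6, 49.2 and 50.2. This 1.61-fold rise (log2 0.69, SE 0.127, adjusted p = 0.027, held in 8 of 12) was the only other call among the 12 tested members of the list of CD40, TRAF adaptors and non-canonical NF-kB, of which 9 were positive. The list's median log2 difference was 0.451, beside 0.0204 over all genes tested. Without combination replicate 1 it was 0.2, without combination replicate 2 it was 0.189, without CSF1Ri replicate 1 it was 0.292 and without CSF1Ri replicate 2 it was 0.174. Calls ranged from 0 to 3 over the fits that left out 1 library. Relb, the partner of p52, overlapped between groups at 94.5, 29.8 and 69.8 against 30.4, 37.8 and 68.2 CPM (adjusted p = 0.527). Traf1 (log2 0.75, adjusted p = 0.178), Birc3 (log2 0.07, adjusted p = 0.869) and the kinase gene Map3k14 (log2 -0.78, adjusted p = 0.186) did not pass the test. Cd40lg, the ligand, was listed at 0 in all 6 libraries.

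Feedback inhibitors of canonical NF-kB rose while 1 subunit fell. Tnfaip3 (A20, which shuts off signalling to NF-kB; chromosome 10, 19000910 to 19015657) was at 570, 734 and 439 CPM in the combination and 224, 206 and 93.2 CPM in CSF1Ri, a 3.33-fold rise (log2 1.74, SE 0.324, adjusted p = 0.0278, held in 9 of 12). Nfkbia, which encodes IkBa, was at 1824, 1957 and 1129 against 803, 745 and 389 CPM (2.54-fold, adjusted p = 0.0394, held in 2 of 12), and with the length offset its adjusted p was 0.074. Nfkbiz, an inducible nuclear IkB protein, was at 505, 522 and 297 against 194, 171 and 100 CPM (2.84-fold, adjusted p = 0.0232, held in 9 of 12). In each of these 3 genes every combination library lay above every CSF1Ri library, and the lowest combination library was replicate 3. Nfkb1, which encodes p105 and p50, was lower at 202, 181 and 227 against 326, 349 and 285 CPM (log2 -0.65, SE 0.115, adjusted p = 0.023, held in 9 of 12). Over the 18 tested genes of this list 3 rose, 1 fell and the median was 0.402, or 0.229 without combination replicate 2. Without combination replicate 1, CSF1Ri replicate 1 or CSF1Ri replicate 2, 0 passed.

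The 250 bases before a RefSeq transcript start of 3 of these risen NF-kB genes are shown because each holds matches to the kB consensus, the sequence NF-kB dimers bind. They are the first windows listed of 3 for Nfkb2, 2 for Tnfaip3 and 1 for Nfkbia. The Nfkb2 window lies inside the GENCODE gene span given above and the Tnfaip3 window almost wholly so, since those spans start at other transcripts. Sequences are from RefSeq (GRCm38.p6), 5′ to 3′ on the gene's strand, and capitals mark kB matches on either strand (in Nfkb2 also a match to the GAS letters TTCNNNGAA).
Nfkb2, chr19:46304487-46304736 (+ strand): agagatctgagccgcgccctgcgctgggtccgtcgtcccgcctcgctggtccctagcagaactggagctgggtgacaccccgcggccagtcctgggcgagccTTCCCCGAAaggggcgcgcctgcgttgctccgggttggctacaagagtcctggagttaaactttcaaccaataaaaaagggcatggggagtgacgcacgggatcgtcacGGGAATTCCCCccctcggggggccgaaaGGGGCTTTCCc
Nfkbia, chr12:55492648-55492897 (- strand): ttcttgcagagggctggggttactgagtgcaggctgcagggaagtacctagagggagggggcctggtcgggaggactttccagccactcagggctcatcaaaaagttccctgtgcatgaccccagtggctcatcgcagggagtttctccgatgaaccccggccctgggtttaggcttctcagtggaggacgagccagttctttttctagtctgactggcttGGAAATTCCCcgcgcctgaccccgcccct
Tnfaip3, chr10:19015411-19015660 (- strand): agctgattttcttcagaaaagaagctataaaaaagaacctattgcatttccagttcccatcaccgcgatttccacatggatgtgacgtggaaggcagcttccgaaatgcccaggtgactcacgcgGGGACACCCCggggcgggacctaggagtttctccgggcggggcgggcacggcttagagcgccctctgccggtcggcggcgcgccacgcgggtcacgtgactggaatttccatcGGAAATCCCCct
Nfkb2 holds 3 kB matches, some of them overlapping, Nfkbia 1 and Tnfaip3 2. Over all 32851 windows of this length in the RefSeq table, 7.25% hold a kB match and 7.02% a GAS match. A match describes letters, not a bound site. Windows were found for 138 of the 199 risen genes and 87 of the 112 fallen ones. As under 80% of each had one, a comparison of motif shares between called sets and all genes is void.

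Among cytokines, Tnf and Il12b rose. Tnf (chromosome 17, 35199381 to 35202007) was at 142, 266 and 96.3 CPM in the combination and 11.1, 12.5 and 7 CPM in CSF1Ri, a 16.5-fold rise (log2 4.04, SE 0.411, adjusted p = 0.0066) that held in 12 of 12 fits. Il12b, the p40 chain of IL-12 and IL-23 (chromosome 11, 44400063 to 44414033), was at 224, 20.4 and 177 against 2.07, 9.03 and 8.13 CPM (21.9-fold, log2 4.45, SE 0.878, adjusted p = 0.0337, held in 2 of 12). The 2 genes ordered the combination libraries differently: replicate 2 was the highest for Tnf and the lowest for Il12b. Il6 was at 55.9, 57.3 and 42.5 against 41.5, 56.1 and 44.9 CPM, a difference of 0.13 on the log2 scale (SE 0.304, adjusted p = 0.871). The inflammasome-processed cytokine Il1b overlapped (422, 479 and 400 against 1649, 1302 and 232 CPM, adjusted p = 0.271), and the CSF1Ri libraries of this gene spanned the combination. Il10 was low in every library, at 9.56 CPM or less (adjusted p = 0.679). Tgfb1, the list's smallest adjusted p after Tnf and Il12b, was at 5.74, 8.54 and 5.51 against 16.8, 14.2 and 25.5 CPM (log2 -1.51, adjusted p = 0.0591). With the length offset Tgfb1 passed as lower (log2 -1.68, adjusted p = 0.0483). Of 21 cytokine genes tested 14 were positive, with a median of 0.192 that ranged from 0.0398 (without CSF1Ri replicate 3) to 0.536 (without CSF1Ri replicate 1).

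The CXCR3 ligands Cxcl10 and Cxcl11, which draw activated T and NK cells, rose. Cxcl10 (chromosome 5, 92346638 to 92348889) was at 37.4, 172 and 44.8 CPM in the combination and 12.4, 12.7 and 5.22 CPM in CSF1Ri (8.4-fold, log2 3.07, SE 0.603, adjusted p = 0.0334, held in 5 of 12, and 0.0532 with the length offset). Without combination replicate 2, its log2 difference was 2.03. Cxcl11 was at 10.4, 12.2 and 9.29 against 2.51, 1.27 and 0.554 CPM (7.33-fold, adjusted p = 0.0446, held in 0 of 12, 0.0632 with the length offset, log2 3.54 without CSF1Ri replicate 1). Cxcl9, the third ligand, was at 45.6, 126 and 26.9 against 0.815, 4.23 and 16.6 CPM and did not pass (log2 3.19, adjusted p = 0.134). Cxcl1, a neutrophil attractant, was at 134, 136 and 111 against 38.2, 40.5 and 6.59 CPM (adjusted p = 0.102). Of 11 CXC chemokine genes tested 9 were positive and the median was 2.16. Under the length offset 0 of them were called, with a median of 1.94. Over the fits that left out 1 library, 0 to 3 were called and the median was 1.92 to 2.66. Among 12 CC chemokines 1 rose: Ccl5, at 1517, 850 and 1198 against 286, 360 and 642 CPM (2.77-fold, adjusted p = 0.0425, held in 2 of 12). Its adjusted p was 0.0669 with the length offset, under which 0 of the 12 rose and 1 fell. Their median was 0.54, and 0.112 to 0.734 over the fits that left out 1 library.

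All 18 tested interferon gamma inducible GTPases, which act against intracellular microbes, were positive, and 5 rose: Gbp2, Gbp2b, Gbp8, Iigp1 and Tgtp1. The median was 1.88. Gbp2b held in the most fits, 10 of 12, at 32.9, 89 and 63.5 against 5.6, 10.3 and 9.91 CPM (7.19-fold, log2 2.85, SE 0.412, adjusted p = 0.0122). Gbp2 (chromosome 3, 142620602 to 142638008) was at 394, 1689 and 528 against 163, 125 and 282 CPM, Tgtp1 at 46.6, 110 and 36.2 against 8.62, 10.9 and 18.2, and Iigp1 at 112, 1667 and 198 against 21.6, 11.4 and 2.45. Combination replicate 2 was the highest library for each of them. Without CSF1Ri replicate 1, Iigp1 was at log2 6.57 and Gbp8 at 3.79 (3.17 with it). Without combination replicate 2, Iigp1 was at log2 3.72 (5.8 with it), Gbp2 at 1.28 (2.19), Tgtp1 at 1.72 (2.35), and 14 of the 18 genes were positive, with 1 called and a median of 0.987. Of the 18, 2 were called under the length offset, and 0 without CSF1Ri replicate 1 or CSF1Ri replicate 2. With the offset the adjusted p was 0.0563 for Gbp2, 0.0544 for Iigp1 and 0.0574 for Tgtp1. The GTPases are near-identical copies in part, so counts divided between family members are uncertain.

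Windows of 250 bases before a RefSeq transcript start of Cxcl10 and Tgtp1 are shown because their letters hold the interferon-stimulated response element, searched as GAAANNGAAA on both strands. Capitals mark that element, and also kB matches in Cxcl10 and a GAS match in Tgtp1. The Tgtp1 window lies inside that gene's GENCODE span (chromosome 11, 48985327 to 48994172), which begins at another transcript.
Cxcl10, chr5:92348890-92349139 (- strand): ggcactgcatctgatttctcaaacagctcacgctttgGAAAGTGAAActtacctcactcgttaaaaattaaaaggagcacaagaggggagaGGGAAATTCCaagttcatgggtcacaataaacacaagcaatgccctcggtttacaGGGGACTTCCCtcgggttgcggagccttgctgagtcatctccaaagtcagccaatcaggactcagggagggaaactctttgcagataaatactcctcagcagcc
Tgtp1, chr11:48992247-48992496 (- strand): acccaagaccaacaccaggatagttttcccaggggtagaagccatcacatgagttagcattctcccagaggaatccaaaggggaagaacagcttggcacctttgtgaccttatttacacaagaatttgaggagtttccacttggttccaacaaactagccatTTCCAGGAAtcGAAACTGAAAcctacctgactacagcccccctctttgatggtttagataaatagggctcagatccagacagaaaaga
The Cxcl10 window holds 1 such element and 3 kB matches, and the Tgtp1 window 1 element and 1 GAS match. Of all 32851 windows 2.98% hold GAAANNGAAA.

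Of 18 interferon gamma signalling genes and other targets 3 rose and 1 fell, with a median of 0.931. Without combination replicate 2 the median was 0.363 and 2 rose, and without CSF1Ri replicate 1 or CSF1Ri replicate 2 there were 0 calls. Ciita, the activator of MHC class II transcription (chromosome 16, 10480059 to 10528418), was at 90, 124 and 107 against 49.1, 43.9 and 55 CPM (2.17-fold, adjusted p = 0.0249, held in 9 of 12). Irf8, a transcription factor of macrophages and dendritic cells, was at 281, 331 and 288 against 152, 147 and 230 CPM (1.7-fold, adjusted p = 0.0402, held in 1 of 12). Il18bp, the secreted inhibitor of IL-18, was at 28.5, 107 and 38.5 against 4.28, 8.84 and 7.49 CPM (8.45-fold, adjusted p = 0.0249, log2 2.29 without combination replicate 2 and 3.08 with it). One receptor chain went the other way. Ifngr1 was at 733, 749 and 712 against 1099, 1100 and 1076 CPM, a fall of the log2 level of -0.58 (SE 0.085, adjusted p = 0.0129, held in 10 of 12), with little spread in either group. Ifng itself was at 14.6, 16 and 12.4 against 3.09, 3.15 and 7.37 CPM (log2 1.65, SE 0.413, adjusted p = 0.068).

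Cfb, complement factor B, and the surface proteins Ly6i and Ly6a had large rises among well-detected genes, and they were picked with their values known. Cfb was at 147, 2126 and 298 against 31.3, 27.3 and 45.5 CPM (24.7-fold, adjusted p = 0.0311, log2 2.68 without combination replicate 2 and 4.63 with it). Ly6i was at 66, 1058 and 173 against 14, 18 and 47.8 CPM (adjusted p = 0.0457, log2 2.17 without combination replicate 2, 4.75 without CSF1Ri replicate 3, and 4.02 with both), and the call was lost with the length offset (0.0637). Ly6a was at 49.2, 139 and 93.7 against 11.4, 3.56 and 12.4 CPM (10.3-fold, adjusted p = 0.0158, held in 11 of 12). In all 3 genes combination replicate 2 was the highest library.

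Genes of the type I interferon response did not pass: 0 of 26 tested were called, 17 were positive and the median was 0.592. Their sign as a list rested on 1 library: without combination replicate 2 the median was -0.152 and 9 of the 26 were positive. Isg15, a ubiquitin-like protein of this response, was at 17.1, 29.3 and 18.2 against 13.2, 13.2 and 8.39 CPM (adjusted p = 0.245). Zbp1, a nucleic acid sensor, was at 50.6, 250 and 75.5 against 39.7, 42 and 40.5 CPM (adjusted p = 0.104).

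Of 11 MHC class II presentation genes tested 7 rose, all 11 were positive and the median was 1.12. The 7 include the activator Ciita, which is also counted above among the interferon gamma targets. H2-Aa (chromosome 17, 34282744 to 34287823) was at 7114, 5423 and 6119 CPM in the combination and 1785, 1882 and 2556 CPM in CSF1Ri, 3-fold higher (log2 1.58, SE 0.2, adjusted p = 0.00911, held in 11 of 12). Control libraries were at 3811 to 4312 CPM for H2-Aa. The list's summed level was 28500 to 32400 CPM in Control, 15100 to 21700 CPM in CSF1Ri and 39200 to 40900 CPM in the combination. H2-Eb1, at 4154, 3139 and 3756 against 897, 973 and 1342 CPM, was 3.44-fold higher (adjusted p = 0.00905, held in 11 of 12). H2-Ab1 rose 2.43-fold (adjusted p = 0.018, held in 10 of 12). The invariant chain gene Cd74 was at 21133, 22270 and 21635 against 8181, 8849 and 12576 CPM (2.2-fold, adjusted p = 0.0324, held in 4 of 12). H2-DMa and H2-DMb1, which load peptide onto class II, rose 1.84-fold and 2-fold (adjusted p = 0.0476 and 0.0285). Replicate 2 was the lowest combination library for H2-Aa, H2-Ab1 and H2-Eb1 and the highest for Cd74, H2-DMa and H2-DMb1. Without it 7 of 11 were called and the median was again 1.12, while without CSF1Ri replicate 2 the median was 1.04 and 0 were called, and without CSF1Ri replicate 1 there were 2. Without combination replicate 1 or 3, or any Control library, 4 were called. With the length offset 4 of the 11 were called, and the median was 0.979; Cd74, H2-DMa and H2-DMb1 no longer passed (0.0597, 0.0905 and 0.0536). Dendritic cells and B cells carry class II too: their marker lists had 0 members called (1 dendritic gene without combination replicate 2), with summed levels of 460 to 3670 CPM (dendritic, 10 of 14 positive) and 133 to 310 CPM (B and plasma cell, 7 of 10 positive) in the combination against 1130 to 2960 and 243 to 335 CPM in CSF1Ri. Their part in the class II rise was not tested.

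MHC class I presentation genes were also all positive, 20 of 20, and 7 rose with a median of 0.842. Calls ranged from 0 (without CSF1Ri replicate 1 or CSF1Ri replicate 2) to 9 (without CSF1Ri replicate 3), with 1 without combination replicate 1. H2-K1, a classical heavy chain, was at 1837, 2086 and 1560 against 1107, 1158 and 1206 CPM (1.58-fold, adjusted p = 0.0189). H2-T22 rose 2.09-fold (adjusted p = 0.0238) and H2-Q6 2.74-fold (adjusted p = 0.0219), though counts of class I genes with near-identical copies are uncertain. B2m, the light chain, was at 5909, 6609 and 4958 against 4094, 3839 and 4077 CPM (1.46-fold, adjusted p = 0.038, held in 3 of 12). The proteasome activator subunits Psme1 and Psme2 rose 1.78-fold and 2.48-fold (adjusted p = 0.0365 and 0.022), and the immunoproteasome subunit Psmb9 2.03-fold (adjusted p = 0.047). Under the length offset 4 of the 20 were called, at a median of 0.772, and Psmb9, Psme1 and B2m no longer passed (adjusted p = 0.0834, 0.0658 and 0.152).

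Proteasome genes, grouped by the symbols Psma, Psmb, Psmc and Psmd, were examined as a family after the values were seen. These symbols cover some assembly factors beside subunits. Of 39 tested 36 were positive and 11 rose, with a median of 0.644, and 1 to 9 rose when 1 library was left out. The 11 include Psmb9, which is also counted above among the MHC class I genes. Psma5, a subunit of the core, was at 275, 335 and 268 against 125, 135 and 153 CPM (2.13-fold, log2 1.09, SE 0.123, adjusted p = 0.0066) and held in 12 of 12 fits. Nuclear-encoded genes of the respiratory chain and ATP synthase, grouped by symbol (Nduf, Uqcr, Cox, Atp5), were also chosen after the values were seen. They include Ndufaf assembly factors beside subunits. Of 86 tested 81 were positive and 9 were called (0 to 8 when 1 library was left out), with a median of 0.431. Atp5g3, a subunit of the ATP synthase ring, was at 133, 162 and 111 against 77.2, 74.6 and 75.1 CPM (1.79-fold, adjusted p = 0.0186). Under the length offset the proteasome calls went from 11 to 2 (median 0.489, 36 of 39 positive). Those of the respiratory chain went from 9 to 2 (median 0.218, 69 of 86 positive), and Atp5g3 no longer passed (0.0612). Over the quartile of well-detected genes with the shortest transcripts, without the offset, the median log2 difference was 0.237 and 86 of 2065 genes rose.

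**Figure D2:**
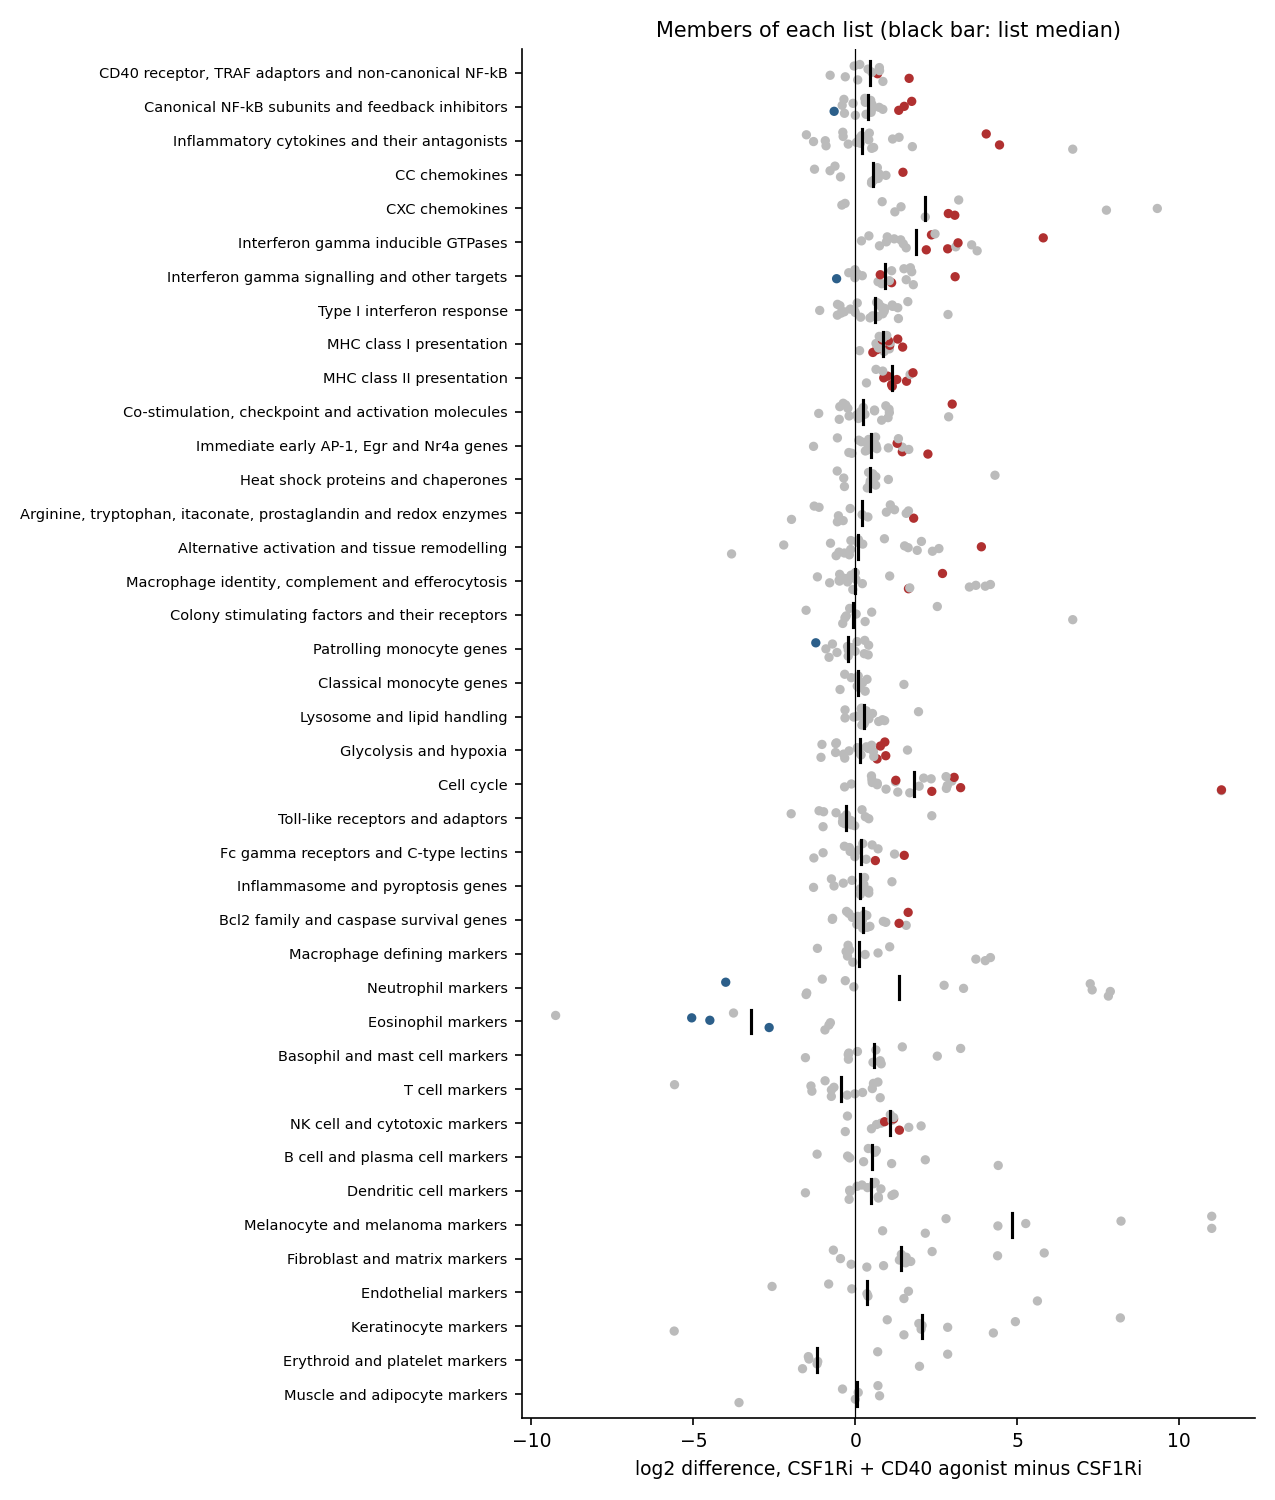
Each row is a list of genes, and each point 1 tested member placed by its log2 difference between the combination and CSF1Ri (x axis). Red points rose and blue points fell at an adjusted p below 0.05, grey points did not pass, and the black bar is the list median. The MHC class I and II and interferon gamma GTPase lists lie entirely to the right of 0 and the eosinophil list entirely to the left.

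Most co-stimulatory and checkpoint genes did not pass, and 1 of 21 rose. Tnfsf9, the ligand of the T cell co-stimulator 4-1BB, was at 122, 48.3 and 91.3 against 14.5, 12.9 and 5.45 CPM (7.97-fold, log2 2.99, SE 0.487, adjusted p = 0.0181, held in 9 of 12). Cd274, which encodes PD-L1, was at 204, 451 and 315 against 227, 201 and 124 CPM and overlapped (log2 0.81, adjusted p = 0.189). The activation marker Cd69 was at 241, 286 and 212 against 139, 149 and 80.8 CPM (adjusted p = 0.0948).

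Immediate early genes, transcribed within minutes of a stimulus and also when tissue is dissociated, were positive in 19 of 23 cases, and 3 rose. Jun, an AP-1 subunit (chromosome 4, 95049034 to 95052222), was at 138, 128 and 121 against 51.5, 57.4 and 49.1 CPM (2.45-fold, log2 1.29, SE 0.145, adjusted p = 0.0066). Atf3, a stress-induced repressor, was at 527, 447 and 377 against 131, 88.3 and 67.2 CPM (4.71-fold, log2 2.24, SE 0.253, adjusted p = 0.0066). Both held in 12 of 12 fits. Dusp2, a phosphatase of MAP kinases, rose 2.74-fold (adjusted p = 0.0365, held in 2 of 12, and 0.0597 with the length offset). Another phosphatase of the ERK pathway, Dusp6, fell: it was at 307, 404 and 345 against 682, 649 and 718 CPM (log2 -0.96, SE 0.111, adjusted p = 0.0066, held in 12 of 12). Heat shock and chaperone genes, which also respond to handling, had 0 of 13 called and a median of 0.461, with 1 called without CSF1Ri replicate 3. The part of tissue handling was not tested.

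**Figure D3:**
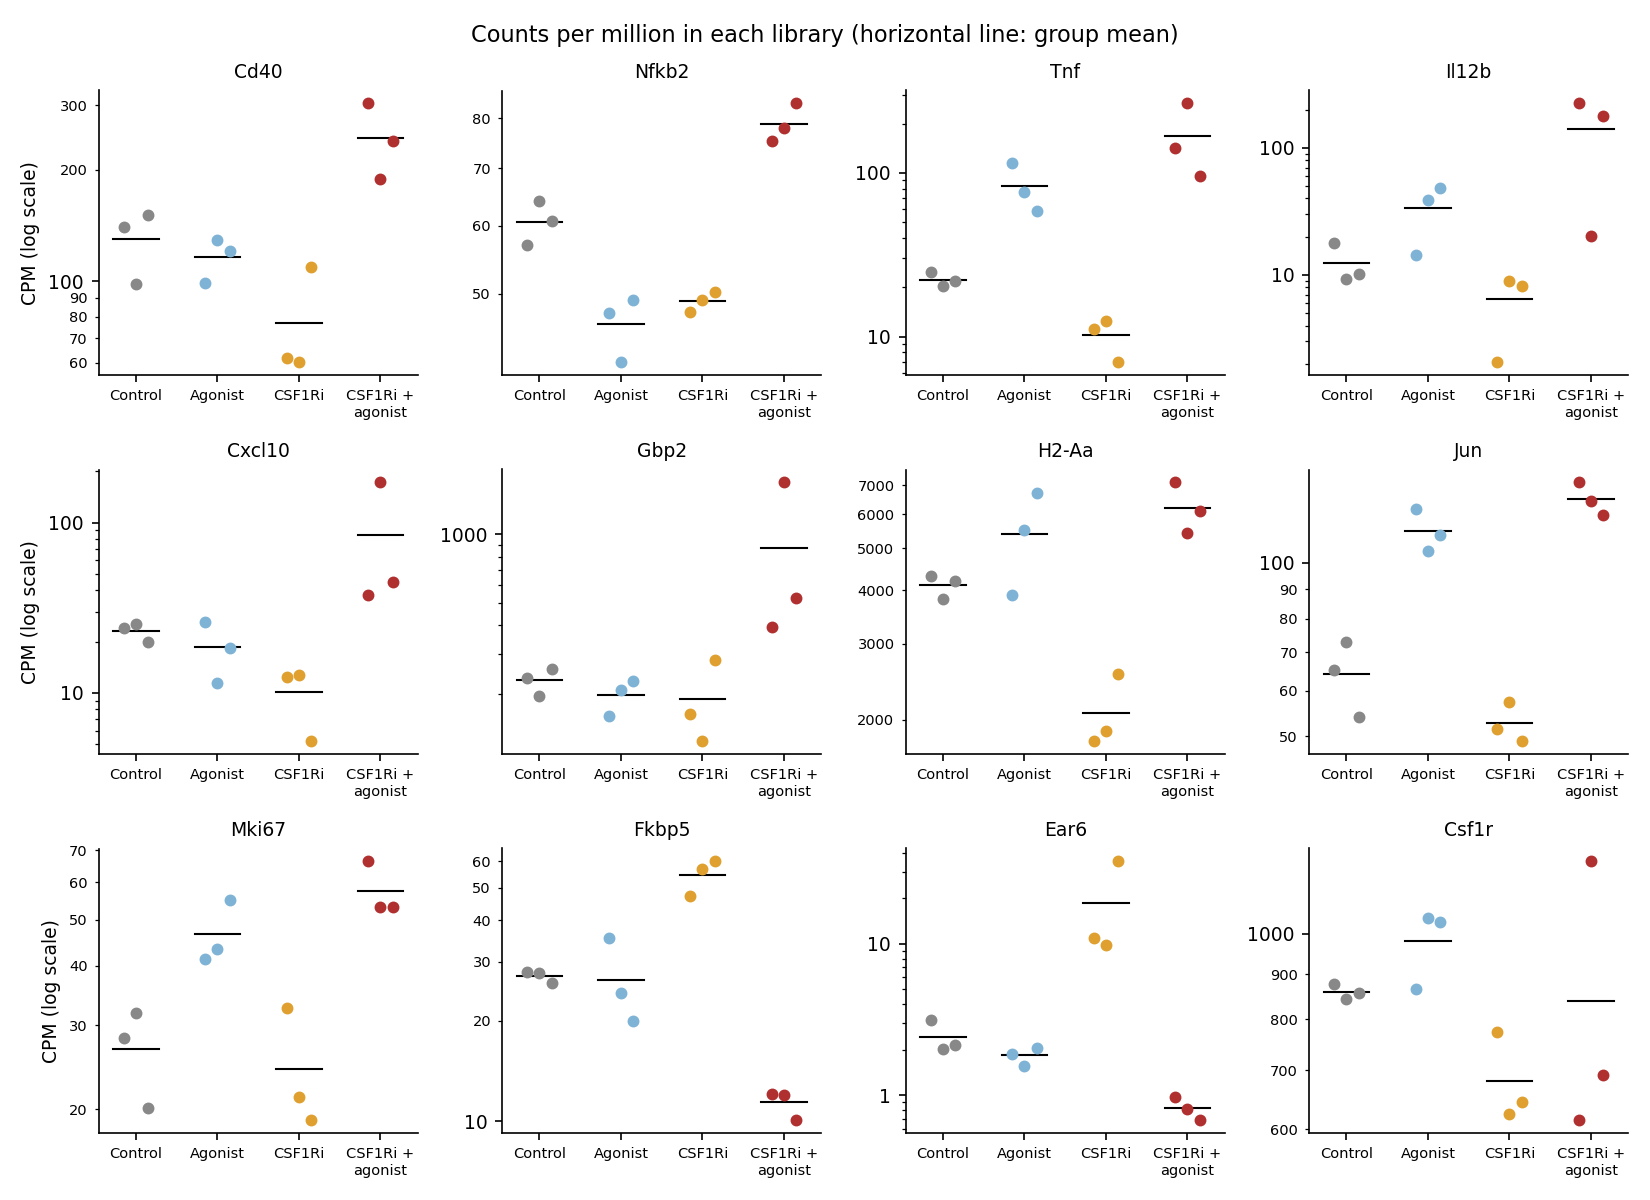
Each panel is a gene and each point a library, with the group on the x axis and CPM on a log y axis, and the horizontal line is the group mean. For Tnf, H2-Aa, Jun, Fkbp5 and Ear6 the 3 combination and 3 CSF1Ri libraries do not overlap, and for Csf1r they do.

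The growth factor axis that the inhibitor targets showed no call. Csf1r was at 615, 1208 and 692 CPM in the combination and 773, 624 and 644 CPM in CSF1Ri (log2 0.30, SE 0.214, adjusted p = 0.493), and Csf1 at 65.8, 62 and 97 against 90.4, 132 and 71.7 CPM (adjusted p = 0.533). Of 10 colony stimulating factors and receptors tested, 0 were called, 5 were positive and the median was -0.0744. That median was 0.0727 with the length offset and -0.228 without combination replicate 2, and 1 gene rose without CSF1Ri replicate 1. Lyz2, lysozyme, was at 11407, 30884 and 14832 against 22047, 22083 and 20438 CPM (adjusted p = 0.804), and again combination replicate 2 was the high library.

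Genes of macrophage state moved singly rather than by list. Mmp12, macrophage elastase (chromosome 9, 7344381 to 7369499), was at 700, 87.5 and 498 against 24.4, 39.5 and 22.6 CPM (14.9-fold, adjusted p = 0.0259, held in 7 of 12) and was the 1 call among 20 alternative activation and remodelling genes. Ass1, which supplies arginine for nitric oxide synthesis, was at 307, 643 and 436 against 159, 112 and 126 CPM (3.49-fold, adjusted p = 0.0198, held in 10 of 12). Aif1, which encodes the cytoskeletal protein Iba1, was at 314, 306 and 253 against 80.1, 75.2 and 124 CPM (3.12-fold, adjusted p = 0.0122, held in 10 of 12). Timd4, a receptor for dying cells, was at 24.7, 118 and 49.3 against 10.6, 14.4 and 4.78 CPM (6.45-fold, adjusted p = 0.0365, log2 1.9 without combination replicate 2 and 2.69 with it). Arg1 was at 241, 56.5 and 113 against 253, 226 and 54 CPM (adjusted p = 0.838), Mrc1, the mannose receptor, at 141, 16.5 and 97.7 against 92.6, 61.8 and 63.6 (adjusted p = 0.88), and Nos2 at 25.6, 53.6 and 14.5 against 34.8, 12.2 and 1.25 (adjusted p = 0.643). All 3 overlapped between groups.

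The C1q genes, which encode the first component of classical complement and were singled out after their values were seen, divided the combination libraries. C1qb was at 198, 8.64 and 93.4 CPM in the combination against 4.82, 3.37 and 14.5 CPM in CSF1Ri (log2 3.72, adjusted p = 0.0679). C1qa was at 84.8, 1.93 and 20.2 against 0.0679, 0.937 and 5.54 CPM, and C1qc at 69.9, 3.69 and 32.2 against 0.849, 0 and 4.93 CPM. Replicates 1 and 3 were high for all 3 genes, and replicate 2 lay within the CSF1Ri range. Il12b and Mmp12 ordered the combination libraries in the same way, with replicate 2 the lowest, while Gbp2, Iigp1, Tgtp1 and Cxcl10 had replicate 2 highest.

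Of 15 patrolling monocyte genes 1 fell: Pou2f2, a transcription factor, at 50.4, 35.6 and 29.3 against 77.5, 75.8 and 115 CPM (log2 -1.22, adjusted p = 0.0373, held in 2 of 12, and 0.0834 with the length offset). The list median was -0.216, with a range of -0.423 (without combination replicate 2, where 2 fell) to -0.0624 (without combination replicate 3) over the fits that left out 1 library. Ace was at 84.1, 33 and 69.8 against 83.7, 90.8 and 154 CPM (adjusted p = 0.205). Of 11 classical monocyte genes 0 were called, 8 were positive and the median was 0.0977. Without combination replicate 2, 1 of the 11 was positive, 2 fell and the median was -0.742, and without that library and CSF1Ri replicate 3 the median was -0.934. Of 14 Fc gamma receptors and C-type lectins tested, 8 were positive, 6 were negative, 2 rose and the median was 0.162. Clec4n (dectin-2) and Clec12a rose 2.85-fold and 1.53-fold (adjusted p = 0.0158 and 0.0494), and Clec12a no longer passed with the length offset (0.0665). In this list 0 rose without CSF1Ri replicate 2, and 2 fell without CSF1Ri replicate 3. Toll-like receptors and adaptors were positive in 4 of 18, with 0 called and a median of -0.297. Of these 18, 3 fell without combination replicate 2 (median -0.543) and 1 fell without CSF1Ri replicate 3, while without combination replicate 1 the median was -0.0124.

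Pmaip1 and Bcl2a1a, which encode the pro-death protein Noxa and a pro-survival member of the Bcl2 family, both rose. Pmaip1 was at 310, 249 and 314 against 78.2, 91.2 and 112 CPM (3.1-fold, log2 1.63, SE 0.204, adjusted p = 0.00911, held in 11 of 12). Bcl2a1a was at 250, 134 and 220 against 69.9, 73 and 94.1 CPM (2.55-fold, adjusted p = 0.026, and 0.0542 with the length offset), and it has near-identical copies. They were the calls among 18 genes of survival and death.

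Of 22 glycolysis and hypoxia genes 4 rose, all of them enzymes of the pathway. Gapdh was at 440, 489 and 426 against 250, 244 and 213 CPM (1.92-fold, adjusted p = 0.0103, held in 11 of 12) and Tpi1 at 210, 269 and 224 against 140, 134 and 100 CPM (1.88-fold, adjusted p = 0.0181, held in 11 of 12). Aldoa rose 1.59-fold (adjusted p = 0.0367) and Pgk1 1.71-fold (adjusted p = 0.0365), and neither passed with the length offset (0.0888 and 0.0574). The list's median was 0.159, and 0 were called without CSF1Ri replicate 2. All 13 mitochondrially encoded genes were positive, with a median of 0.51, and their summed level was 14900 to 21000 CPM in the combination and 10900 to 12900 CPM in CSF1Ri. Of these, mt-Cytb was called, at 2146, 1996 and 1866 against 1092, 1318 and 1260 CPM (adjusted p = 0.0165). Without combination replicate 2, 6 of the 13 were called, and without CSF1Ri replicate 1 or CSF1Ri replicate 2, 0.

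Of 24 cell cycle genes 5 rose, 22 were positive and the median was 1.83. Mki67, a marker of dividing cells (chromosome 7, 135689784 to 135716361), was at 66.3, 53.2 and 53.2 against 32.7, 21.2 and 19 CPM (2.37-fold, log2 1.25, SE 0.253, adjusted p = 0.0365, held in 4 of 12). Top2a, which untangles DNA before division, was at 74.5, 30.4 and 53.5 against 7.43, 2.96 and 8.72 CPM (8.27-fold, adjusted p = 0.0256). Bub1b, a spindle checkpoint kinase, was at 10.1, 3.86 and 15.5 CPM and was listed at 0 in all 3 CSF1Ri libraries, so it was at least 296-fold higher against a floor of 3 counts over the group (adjusted p = 0.00911, held in 12 of 12). Ccnb2 rose 9.53-fold (adjusted p = 0.0361, log2 3.92 without CSF1Ri replicate 3 and 3.25 with it) and Birc5 5.15-fold (adjusted p = 0.038), and with the length offset neither passed (0.0519 and 0.0637). Between 1 gene (without combination replicate 1 or 3, or CSF1Ri replicate 2) and 6 genes (without combination replicate 2) of this list were called when 1 library was left out. For melanocyte and melanoma markers, all 8 tested were positive, 0 passed, and their summed level was 27.5 to 111 CPM in the combination against 11.4 to 15.7 CPM in CSF1Ri. Of the 8, 3 rose without combination replicate 2, and the median was 5.36 against 4.83 with it. Dct, a pigment enzyme, was at 27.5, 4.78 and 23.1 against 4.58, 3.71 and 4.05 CPM, and Oca2 was listed at 0 in all 6. Top2a, Ccnb2, Birc5 and Dct were each lowest among combination libraries in replicate 2. Fibroblast markers (10 of 13 positive, 160 to 240 CPM against 41.4 to 196 CPM) and keratinocyte markers (9 of 10 positive, 5.63 to 113 against 8.45 to 18.9 CPM) had 0 called. Of these, 3 keratinocyte markers rose without combination replicate 2 and 1 fibroblast marker rose without CSF1Ri replicate 3. The part of tumor or stromal cells in the cell cycle genes was not tested.

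Of 13 NK cell and cytotoxic markers 3 rose, 11 were positive and the median was 1.08. Gzma, granzyme A, was at 374, 618 and 428 against 160, 164 and 229 CPM (2.57-fold, adjusted p = 0.0361, held in 3 of 12). Nkg7 was at 204, 214 and 227 against 77.6, 100 and 107 CPM (2.26-fold, adjusted p = 0.0298) and Klrk1, the receptor NKG2D, at 173, 216 and 170 against 72.6, 105 and 121 CPM (1.87-fold, adjusted p = 0.0439). The list's summed level was 1190 to 1840 CPM in the combination and 621 to 875 CPM in CSF1Ri. On normal chow it was 867 to 1160 CPM in Control and 1070 to 2110 CPM with the agonist. Under the length offset 0 of the 13 were called (median 0.806). When 1 library was left out, 0 to 5 were called: 5 without CSF1Ri replicate 3, and 0 without any 1 of combination replicates 1 and 3, CSF1Ri replicates 1 and 2 and the Control libraries. T cell markers had 0 of 14 called, 5 positive, a median of -0.456 (0.119 without CSF1Ri replicate 3) and summed levels of 35.6 to 75.1 against 49 to 78.4 CPM.

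Eosinophil genes were lower in the combination: all 8 tested were negative, 3 fell and the median was -3.21. Ccr3, the eotaxin receptor (chromosome 9, 124021972 to 124031689), was at 15.4, 15.4 and 24.5 against 103, 111 and 136 CPM (log2 -2.66, SE 0.422, adjusted p = 0.0178, held in 9 of 12). Il5ra, the IL-5 receptor chain, was at 0.218, 0.305 and 0.23 against 6.99, 8.36 and 9.94 CPM (log2 -5.05, adjusted p = 0.0165, held in 10 of 12). Ear6, a granule ribonuclease with near-identical copies, was at 0.98, 0.813 and 0.689 against 11, 9.89 and 35 CPM (log2 -4.49, adjusted p = 0.00911, held in 12 of 12, and -3.64 without CSF1Ri replicate 3). Siglecf was at 2.01, 0.0678 and 3.01 against 19.2, 11.7 and 38.4 CPM and did not pass (adjusted p = 0.163). Summed eosinophil markers were at 312 to 378 CPM in CSF1Ri, 82.3 to 151 CPM in the combination and 84.6 to 164 CPM in Control. The offset for length left 3 called, and 1 was called without combination replicate 1 or CSF1Ri replicate 2.

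**Figure D4:**
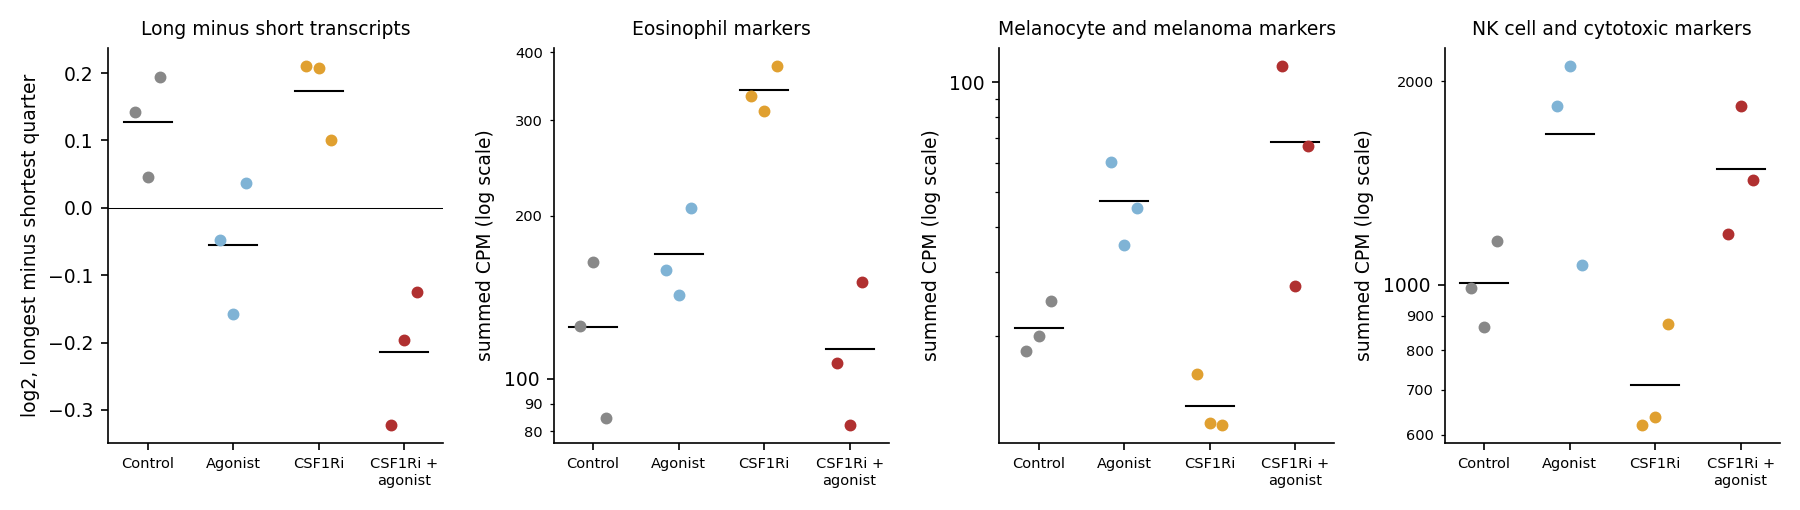
The first panel gives, per library and group, the log2 difference between the longest and shortest quartile of transcripts, and the other panels the summed CPM of eosinophil, melanocyte and NK cell markers on log axes, with a line at the group mean. Combination libraries lie below CSF1Ri libraries in the first and eosinophil panels and above them in the melanocyte and NK panels.

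Of 12 neutrophil markers 1 fell. Retnlg, a resistin-like protein of neutrophils, was at 10.7, 33.2 and 28.6 against 572, 296 and 292 CPM (log2 -4, SE 0.484, adjusted p = 0.00837, held in 12 of 12). It was also low with the agonist on normal chow, at 13.8 to 28.1 CPM against 119 to 218 CPM in Control (adjusted p = 0.116). Over the list 6 of 12 were positive, with a median of 1.35 that was -0.182 without combination replicate 3, and summed levels of 877 to 2600 against 775 to 3200 CPM.

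The gene with the smallest p among those that fell was Fkbp5, a chaperone of steroid receptors that glucocorticoids induce (chromosome 17, 28399094 to 28517527). It was at 12.1, 12 and 10.1 CPM in the combination and 47.4, 56.8 and 60 CPM in CSF1Ri, a log2 fall of -2.27 (SE 0.234, adjusted p = 0.0066) that held in 12 of 12 fits. Control was at 25.9 to 27.9 CPM. Tsc22d3, another gene that glucocorticoids induce, was at 351, 471 and 641 against 1020, 1064 and 1169 CPM (log2 -1.15, adjusted p = 0.0361, held in 3 of 12). Of 10 such genes, a group chosen after the values were seen, these 2 fell, 4 were positive and the median was -0.448.

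Further fallen genes are named here with their values already known. Ogt, the enzyme that adds GlcNAc to nuclear and cytosolic proteins, was at 154, 152 and 163 against 360, 386 and 398 CPM (log2 -1.29, SE 0.142, adjusted p = 0.0066, held in 12 of 12). Gapt, an adaptor of blood cells, was at 41.7, 48.3 and 56.8 against 147, 109 and 153 CPM (adjusted p = 0.0103, held in 12 of 12). Il17ra, a receptor chain for IL-17, was at 57.9, 91.1 and 78.6 against 161, 195 and 165 CPM (log2 -1.19, adjusted p = 0.0122, held in 11 of 12). Cd300lb, an activating receptor of myeloid cells, was at 121, 81.6 and 176 against 332, 327 and 299 CPM (adjusted p = 0.0223), Abca9, a lipid transporter, at 38.5, 26.3 and 48.7 against 119, 117 and 117 (adjusted p = 0.0158), and Kdm6b, a histone H3K27 demethylase, at 178, 159 and 158 against 381, 449 and 256 (adjusted p = 0.0198). Of the receptors Notch1 and Notch2, the first was at 30.7, 39.1 and 36.8 against 70, 83.7 and 67.9 CPM (adjusted p = 0.0285) and the second at 239, 313 and 231 against 384, 413 and 422 (adjusted p = 0.0425). Ahr, the aryl hydrocarbon receptor, was at 34.9, 26.8 and 57.4 against 126, 94 and 128 CPM (log2 -1.54, adjusted p = 0.0463, held in 1 of 12). With the length offset Ahr, Notch1 and Notch2 no longer passed (adjusted p = 0.082, 0.0977 and 0.41).

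Some called genes were absent from a whole group. Listed at 0 in all 3 CSF1Ri libraries were 16 risen genes, with mean levels of 0.319 to 9.82 CPM in the combination. Bounds for such genes compare the mean of the other group with the floor. Lig4, which joins broken DNA ends, was at 5.85, 3.63 and 6.84 CPM (mean at least 164-fold higher). Ubd, a ubiquitin-like protein, was at 5.72, 2.24 and 0.102 CPM (mean 2.69, SD 2.83, at least 80.9-fold higher). Its level in combination replicate 3 was near the 0.0766 CPM that 3 counts make in that library. Listed at 0 in all 3 combination libraries were 4 fallen genes. Adamdec1, a protease of mucosal macrophages, was at 27.1, 7.38 and 26.2 CPM in CSF1Ri (at least 710-fold lower in the combination, adjusted p = 0.0111, held in 12 of 12), and it was listed at 0 with the agonist on normal chow as well. Ren1, renin, was close to 0 at 0.0272, 0.0678 and 0.0766 against 11.9, 8.96 and 13.7 CPM (adjusted p = 0.0256).

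F11r, a junctional adhesion molecule on platelets and epithelial cells, was a risen gene outside the lists that held in 12 of 12 fits, at 121, 124 and 134 against 20.8, 29.5 and 35 CPM (4.45-fold, log2 2.15, SE 0.258, adjusted p = 0.00837). Control libraries were at 60.5 to 98 CPM.

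The same antibody was given on normal chow, and that comparison shares no libraries with the one above. There 0 genes were called by edgeR, with 1231 at an unadjusted p below 0.05. Of the 199 genes that rose on inhibitor chow, 163 (81.9%) were also positive on normal chow, beside 50.9% of all tested genes, with a median log2 difference of 0.282 there and 1.23 on inhibitor chow. Of the 112 that fell, 95 (84.8%) were also negative, beside 49.1%, with medians of -0.335 and -1.04. The transcript length trend given above ran the same way with the agonist on both chows, and risen and fallen genes differed in length. Its part in these shared signs was not tested. Genes chosen for passing a threshold on inhibitor chow had to be large there, so the medians are a description. The difference of the antibody effect between the chows was tested for every gene, and 0 passed, with 1305 at an unadjusted p below 0.05. DESeq2 called 172.

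Values of individual genes on both chows follow as a description, since no gene passed the test of the difference between chows. Tnf was at 115, 76.2 and 58.8 CPM with the agonist on normal chow and 24.7, 20.5 and 21.7 in Control (log2 1.91 there, 4.04 on inhibitor chow, adjusted p of the difference 0.334). The log2 difference of Atf3 was 1.86 on normal chow and 2.24 on inhibitor chow (adjusted p of the difference 0.841), that of Nfkbia 1.11 and 1.34 (0.941) and that of Tnfaip3 1.40 and 1.74 (0.918). Cd40 was at -0.16 on normal chow and 1.66 on inhibitor chow (0.247), Nfkb2 at -0.39 and 0.69 (0.174), Cxcl10 at -0.31 and 3.07 (0.319) and Fkbp5 at -0.04 and -2.27 (0.141). The type I interferon list had a median of -0.891 on normal chow and 0.592 on inhibitor chow, and the GTPase list -0.223 and 1.88. Whether these list medians differed between chows was not tested. Without combination replicate 2 the inhibitor chow medians were -0.152 and 0.987.

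**Figure D5:**
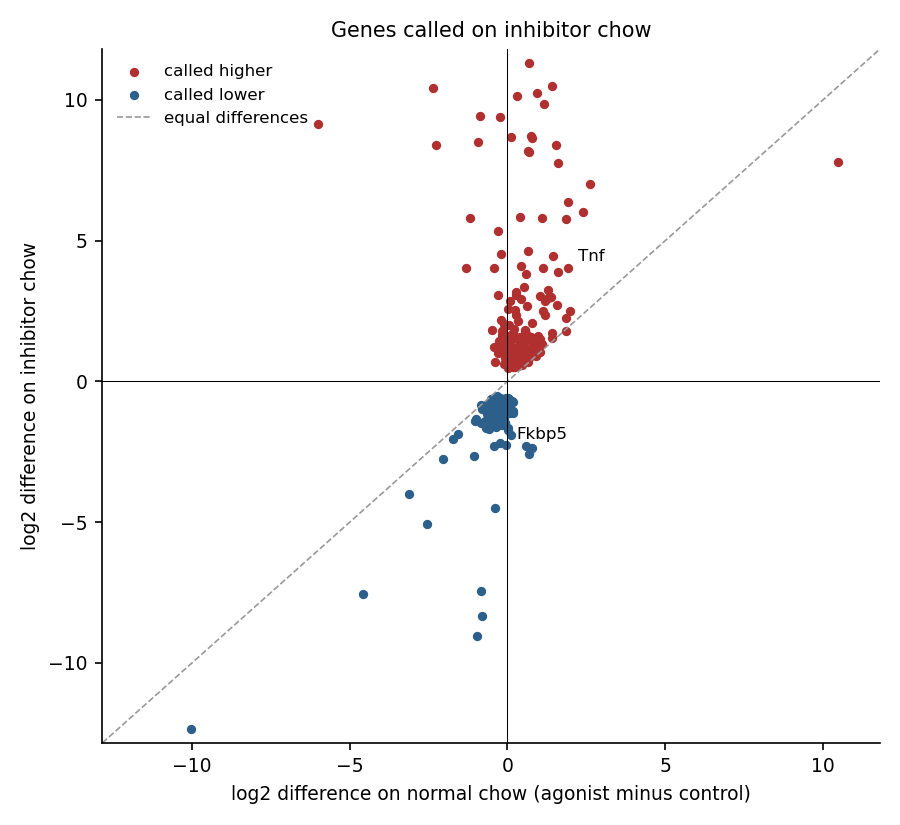
Each point is a gene called on inhibitor chow, placed by its log2 difference between agonist and Control on normal chow (x axis) and between the combination and CSF1Ri (y axis), with red called higher and blue called lower. Most red points have x values above 0 (163 of 199) and most blue points below 0 (95 of 112), and Fkbp5 lies near 0 on the x axis.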

How the data were processed

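RNA was measured in 12 libraries, made per the labels' protocols without strand information from 50 ng of RNA with an ultra-low input kit and read as 75-bp pairs, 6 libraries to a lane. Lane membership, the full genotype and sorting are not reported here. Per the submitters' processing notes the tools were STAR, HTSeq and DESeq2 on mm10. The files, per the file headers, hold for each transcript its length, effective length, estimated count and TPM, which is how transcript quantifiers write their output. Which quantifier made them is not stated. As deposited, the estimated counts carry no normalization, and the deposited TPM values, scaled by length and depth, served only to check the files. No molecular identifiers were used, so floors cover counting error only.

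Of 111462 transcripts 110203 matched GENCODE M21 (GRCm38). The remainder, 0.378% to 0.436% of counts, were left out. Counts were summed per gene and rounded. One edgeR 4.0.16 model (R 4.3.3) with a term per group was fitted to the 12 libraries with TMM scaling, filterByExpr and robust quasi-likelihood tests (8 residual degrees of freedom), adjusted over 16027 genes. CPM are TMM-scaled. Genes at 0 in a group were compared with a floor of 3 counts over the group. Leave-one-out, scaling, filter, DESeq2 1.42.0, limma 3.58.1 voom, block and length alternatives were run. The labels do not say whether the 2 groups' replicate numbers pair samples. Members and the 41 gene lists were chosen with earlier results of these data known. Named genes were the called members of each list (at most 6, or the 2 smallest adjusted p where fewer than 2 were called), a fixed set of genes, and the largest changes; of the last, those at low counts are summarised. Coordinates are 1-based GENCODE M21 gene spans. Some genes are not reported here.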

Additional observations from a re-analysis of the deposited data

How the results depend on the processing

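In the 12-library fit 199 genes were higher and 112 lower, and 0 differed in their response between chows. Counts of genes higher and lower were 921 and 563 with DESeq2 (172 for the difference between chows), 81 and 19 with DESeq2 at the thresholds in the labels' protocols (a log2 change of 1.5 and a Holm-Sidak p of 0.01; 23 for the difference), 312 and 212 with edgeR's bias-adjusted form, and 156 and 74 with no low-count filter. From the 6 libraries by themselves they were 0 and 0 with edgeR or limma voom, 8 and 7 with the bias-adjusted form and 513 and 305 with DESeq2. The transcript length offset gave 102 and 72. With a replicate block they were 85 and 36, of which 82 and 33 were also called without it. Deviations of same-numbered samples from their group means had correlations of -0.0378, 0.0603 and 0.0435. With means of only 3 libraries, these values cannot decide whether the numbers pair the samples. Leaving out 1 library gave 13 to 256 higher, 9 to 173 lower and 0 to 15 for the difference between chows. Without both CSF1Ri replicate 3 and combination replicate 2 the counts were 361, 271 and 66. Scaling by DESeq2 size factors or upper quartiles, a minimum of 1 CPM and limma voom on 12 libraries stayed within 1.5 times for both directions. The length offset and the DESeq2, limma voom and bias-adjusted fits to 6 libraries were added after seeing the data.

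Among called genes, D10Wsu102e turned from -0.60 to 0.27 with the length offset. Signs also reversed for some named genes that had not passed the test: Birc3 was at -0.0163 with the length offset, -0.152 without combination replicate 2 and -0.215 without that library and CSF1Ri replicate 3. Il6 was at -0.0335 with the offset. Without both of those libraries Il10 was at -0.0365, Nos2 at -0.228 and Csf1r at -0.0941, and without combination replicate 2 Irf1 was at -0.0772 and Csf1r at -0.0549. Mrc1 was at -0.137 with limma voom, -0.153 with limma voom on 6 libraries and -0.343 without combination replicate 1, where Lyz2 was at 0.091, Adgre1 at 0.101 and Ptprc at 0.0046. Over the fits without 1 library the ranges were -0.152 to 0.2 (Birc3), -0.0772 to 0.465 (Irf1), -0.343 to 0.719 (Mrc1), -0.0549 to 0.486 (Csf1r), -0.712 to 0.091 (Lyz2), -0.179 to 0.101 (Adgre1) and -0.621 to 0.0046 (Ptprc). The causes were not tested. With 3 pools per group and a biological coefficient of variation of 61% between samples, the number of pools limits precision, and genes under about 1 CPM also rest on few counts.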
